A study of Mus musculus with 2 samples.

Results

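The Ms4a genes described here are 7 members of the membrane-spanning 4-domain family, subfamily A: Ms4a4b, Ms4a4c, Ms4a4d, Ms4a6b, Ms4a6c, Ms4a6d and Ms4a7. They were chosen by name, through the gene name in the annotation of each array, and comprise 10 of 44170 transcript rows and 7 of 24203 genes measured. Expression was profiled on NimbleGen single-colour arrays in LT-HSCs (long-term haematopoietic stem cells, which sustain blood formation) that had been sorted from marrow of 8-week-old C57BL/6 mice. The groups were 1 array of cells from cia-cGAS knockout (KO) mice and 1 array of cells from cia-cGAS wild-type (WT) mice, cia-cGAS being a circular RNA according to the labels. The sources used here do not say how the knockout was made, how many cells were sorted or whether animals were pooled, and no row was matched to cia-cGAS itself. With 1 array a group there was no replicate error and no test between groups, and every difference describes these 2 RNA samples. In RNA of a sorted population, more cells of a type and more RNA per cell cannot be told apart.

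Proteins of this family cross the membrane with 4 segments and associate with other receptors at the cell surface. The family includes CD20 of B cells (Ms4a1) and the beta chain of the high-affinity IgE receptor (Ms4a2), and its genes lie side by side in a single cluster on mouse chromosome 19. The Ms4a4 and Ms4a6 genes are known from monocytes, macrophages and T cells. Several of them respond to interferon.

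The 5 members Ms4a4c, Ms4a4b, Ms4a6b, Ms4a6c and Ms4a6d were higher in KO cells, by 3.51-fold or more, and the other members, Ms4a4d and Ms4a7, were not. The count of at least 2-fold higher was 5 of 7, and 0 of 7 were at least 2-fold lower. Over all 24203 genes measured, 2.48% were at least 2-fold higher by the same rule and 1.82% at least 2-fold lower. The median difference of all 7 members, KO minus WT, was 2.07 on the log2 scale, beside -0.04 over all genes. A gene was called detected on an array when its brightest row exceeded a floor. The floor was the 95th percentile of the 1029 rows that belong to taste, vomeronasal and olfactory receptor genes, which serve as genes not known from blood stem cells. The floor lay at 8.97 on the log2 scale (an intensity of 500.0) on the KO array and at 9.11 (551) on the WT array. By this measure 6 of the 7 members were detected in KO cells and 3 in WT cells, beside 10242 and 9859 of all 24203 genes. Where a gene was detected in KO cells alone, its KO value was set against the WT floor and the fold is a lower bound, given with the words at least. A stricter floor was set at the 99th percentile of the same receptor rows. With it 3 of 7 members were at least 2-fold higher in place of 5, beside 1.85% of all genes. The lower bounds of Ms4a6c and Ms4a6d became 1.66-fold and 1.77-fold.

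**Figure D1:**
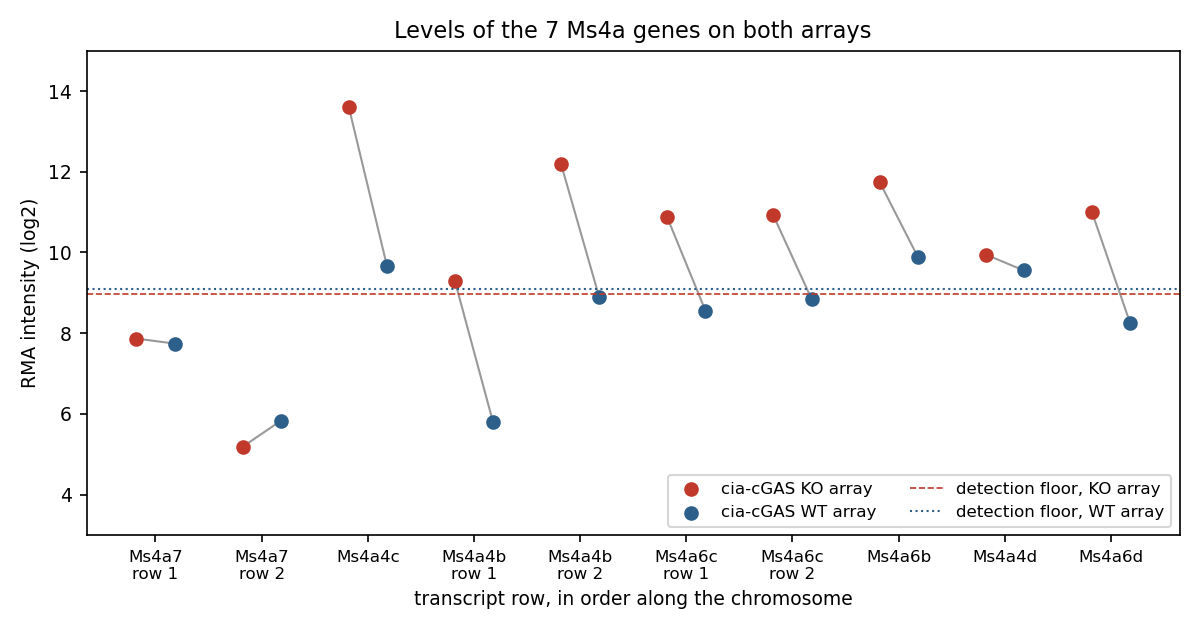
Log2 RMA intensity of every transcript row of the 7 Ms4a genes, in order along the chromosome, with the KO array (red) left of the WT array (blue), 1 array each, and the detection floors as horizontal lines. The KO point lies above the WT point in 9 of 10 rows, beside 21362 of all 44170 rows measured. Both rows of Ms4a7 lie under the floors, and the points of Ms4a4d lie close together.

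Ms4a4c, a gene known from inflammatory monocytes, had the largest difference among the members. Its single row (gene ID 64380, MM9 chromosome 19 from 11482194 to 11501124) had an intensity of 12534 in KO cells, against 817 in WT cells. On the log2 scale these levels were 13.61 in KO cells and 9.67 in WT cells, both above the floor. The difference of 3.94, a 15.3-fold higher level in KO cells, ranked 13 among the 9242 genes detected on both arrays. With the stricter floor Ms4a4c was detected in KO cells alone and was at least 10.8-fold higher. The 3 other genes whose pair of log2 levels lay closest to that of Ms4a4c, by Euclidean distance over the 2 arrays, were Gm12250 at 0.29, Slfn10-ps at 0.32 and Mrgpra2b at 0.38. Gm12250 is the gene of the immunity-related GTPase Irgb10. Slfn10-ps belongs to the Schlafen family and Mrgpra2b encodes a Mas-related G protein-coupled receptor.

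Ms4a4b, first described in T cells as Chandra, was higher in KO cells in both of its rows. The brighter row (gene ID 60361, 11518047 to 11532671) had an intensity of 4690 in KO cells and 475 in WT cells. The WT value lay just under the floor, so that Ms4a4b was at least 8.51-fold higher in KO cells. This bound was 4.03-fold with the stricter floor and 3.11-fold with both rows averaged. The dimmer row, which ends at 11533995, had 629 in KO cells and 55.5 in WT cells. Its difference of 3.50 was close to the 3.30 of the brighter row, and the WT level was far under the floor.

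The promoters of Ms4a4c and Ms4a4b are shown because these neighbours were the members with the largest differences and their upstream sequences resemble each other. The sequences are the 250 bases before each gene's start in a RefSeq table of the GRCm38.p6 assembly, on the plus strand, at chr19:11407411-11407660 for Ms4a4c and chr19:11443308-11443557 for Ms4a4b. Capitals mark the longest run common to both, of 20 bases.
Ms4a4c: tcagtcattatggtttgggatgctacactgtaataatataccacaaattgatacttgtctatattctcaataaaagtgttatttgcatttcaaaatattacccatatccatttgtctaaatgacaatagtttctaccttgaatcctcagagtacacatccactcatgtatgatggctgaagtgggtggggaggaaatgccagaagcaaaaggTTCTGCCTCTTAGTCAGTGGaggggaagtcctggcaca
Ms4a4b: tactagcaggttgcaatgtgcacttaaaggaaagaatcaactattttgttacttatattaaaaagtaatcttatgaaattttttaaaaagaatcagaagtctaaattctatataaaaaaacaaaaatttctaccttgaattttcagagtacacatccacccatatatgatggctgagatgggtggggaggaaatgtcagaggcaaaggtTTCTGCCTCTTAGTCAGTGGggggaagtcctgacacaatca
A local alignment of both sequences covered 133 positions, of which 88.0% were identical. Among 32851 promoter windows of the table, 2 held the 20-base run, those of these genes.

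Ms4a4d, the remaining Ms4a4 member, was detected on both arrays at similar levels. Its row (gene ID 66607, 11611338 to 11632956) had an intensity of 989 in KO cells and 752 in WT cells. The difference was 0.40, a 1.32-fold higher level in KO cells. With the stricter floor Ms4a4d was detected on neither array. Over 2896 genes with several detected rows, the log2 differences of rows of 1 gene had a pooled SD of 0.37. The difference of Ms4a4d was about as large as this spread between rows. Its promoter window shared no run longer than 9 bases with that of Ms4a4b or Ms4a4c.

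The 3 Ms4a6 members were all higher in KO cells. Ms4a6b, a gene known from T cells, had an intensity of 3448 in KO cells and 953 in WT cells (gene ID 69774, 11593071 to 11604558). It was detected on both arrays, with a difference of 1.85, a 3.62-fold higher level in KO cells. Ms4a6d, known in mouse macrophages as a partner of the receptor VSIG4, had 2060 in KO cells and 306 in WT cells (gene ID 68774, 11661095 to 11679231). As the WT value was under the floor, Ms4a6d was at least 3.74-fold higher.

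Ms4a6c, a marker of classical monocytes in mouse, was measured by a pair of rows that overlap almost entirely (gene ID 73656, 11543914 to 11547226 and 11543961 to 11547226). They had 1875 and 1937 in KO cells, against 377 and 460 in WT cells. Both rows passed the floor in KO cells alone, and their differences were 2.31 and 2.07. From the brighter row, Ms4a6c was at least 3.51-fold higher in KO cells.

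The promoters of Ms4a6c and Ms4a6b are shown because their upstream sequences also resemble each other, at chr19:11469118-11469367 and chr19:11518309-11518558 of GRCm38.p6, plus strand, 250 bases before each start. Capitals mark the longest run common to both, of 48 bases.
Ms4a6c: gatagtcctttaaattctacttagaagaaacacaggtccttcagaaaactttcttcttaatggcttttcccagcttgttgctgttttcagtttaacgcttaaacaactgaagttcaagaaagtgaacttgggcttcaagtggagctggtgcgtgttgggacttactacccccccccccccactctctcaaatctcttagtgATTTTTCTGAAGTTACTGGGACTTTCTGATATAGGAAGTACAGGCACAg
Ms4a6b: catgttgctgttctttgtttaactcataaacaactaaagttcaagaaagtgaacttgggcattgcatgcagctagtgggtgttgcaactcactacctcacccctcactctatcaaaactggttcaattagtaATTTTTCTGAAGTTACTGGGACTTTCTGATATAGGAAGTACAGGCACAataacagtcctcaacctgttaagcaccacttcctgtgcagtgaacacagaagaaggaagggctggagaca
Their alignment covered 180 positions, of which 82.2% were identical, and no other window of the table held the 48-base run. Of 28 pairs compared among 8 windows of the members and their neighbour Ms4a4a, these 2 pairs had the longest alignments. The table held windows for 6 of the 7 members, and Ms4a6d had none. None of the 7 windows of these 6 members, 2 of them of Ms4a7, held the core of the interferon-stimulated response element (GAAA, any 2 bases, GAAA), of the gamma-activated site (TTCNNNGAA) or of PU.1 sites (GAGGAAGT), searched on both strands. These letters were found in 2.98%, 7.02% and 2.44% of all windows. A shorter pair of half-sites, GAAANNGAA, overlaps the first motif and was chosen after the sequences were seen. Its share among the member windows therefore cannot be weighed against that of all windows. It was found in 7.13% of all windows and in 4 of the 7 member windows. These were the Ms4a6c window from -133 to -125 and the Ms4a6b window from -206 to -198, both with gaaagtgaa, and both windows of Ms4a7, whose level was under the floors.

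Ms4a7, a gene known from tissue macrophages, was not detected on either array. Its brighter row (gene ID 109225, 11395883 to 11410584) had an intensity of 233 in KO cells and 214 in WT cells, and the other, ending at 11410606, had 36.3 in KO cells and 56.8 in WT cells. All 4 values were under the floors, so no fold is given, and the rows differed in sign, at 0.12 and -0.65.

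The members span 283 kb on MM9 chromosome 19, from 11395883 to 11679231, and 4 further rows lie between them. Ms4a4a, a macrophage gene of the same family, had an intensity of 5932 in KO cells and 692 in WT cells and was 8.57-fold higher (gene ID 666907, 11450012 to 11467280). With the stricter floor it was at least 5.09-fold higher. Gm8369, with 750 in KO cells and 238 in WT cells, passed the floor in KO cells alone and was at least 1.36-fold higher. The remaining rows carry no gene ID in the files. The row from 11544655 to 11559067, which overlaps Ms4a6c, had 1467 in KO cells and 478 in WT cells, at least 2.66-fold higher. The row from 11566537 to 11582584, which overlaps Gm8369 and is annotated as weakly similar to Ms4a4b, had 957 in KO cells and 75.4 in WT cells, at least 1.74-fold higher. Of the 14 rows in this span, 8 were at least 2-fold higher and 0 at least 2-fold lower, beside 2.37% and 1.47% of all 44170 rows. Whatever the floor, 11 of the 14 had a difference of 1 or more, beside 6.61% of all rows. The exceptions were the rows of Ms4a7 and Ms4a4d. The Ms4a4 and Ms4a6 genes are close relatives, and signal shared between them by cross-hybridisation was not tested, as probe sequences were not used here.

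**Figure D2:**
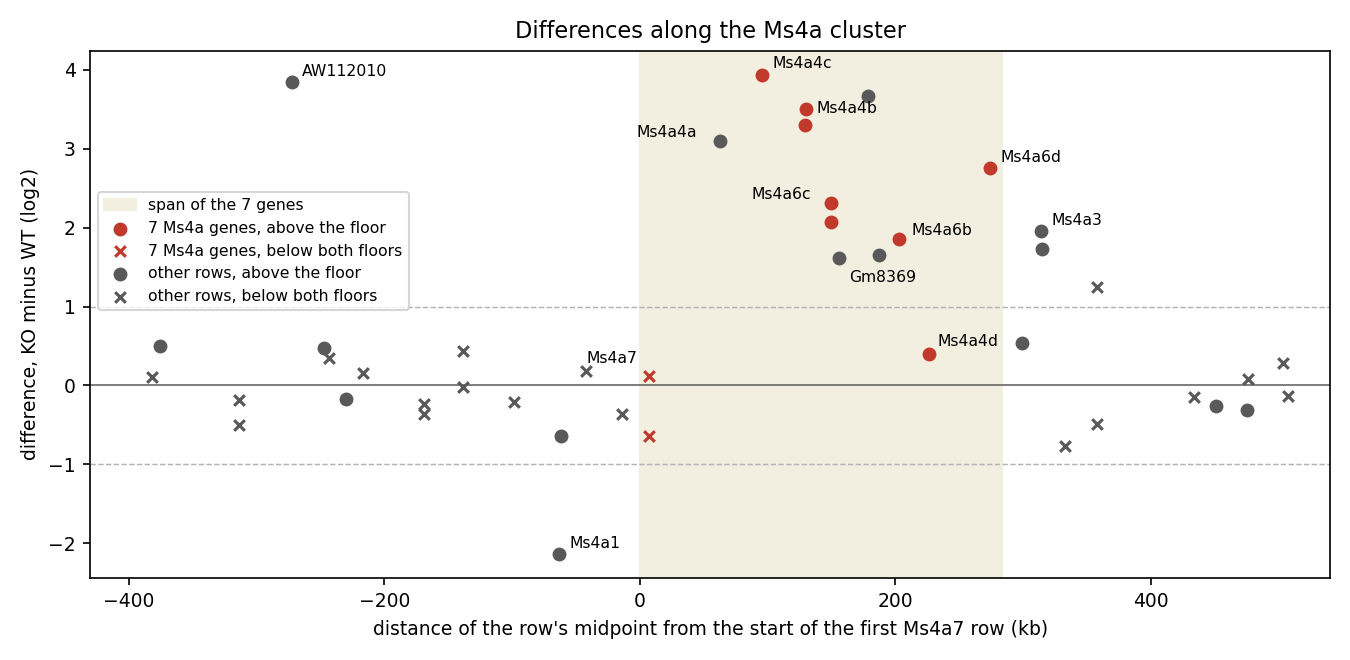
Difference in log2 intensity, KO minus WT, of each transcript row around the Ms4a cluster, against the distance in kb of its midpoint from the start of the first Ms4a7 row. Members are red, other rows grey, crosses are rows below both floors, and dashed lines mark a difference of 1 in size. From Ms4a4a to Ms4a6d every row except that of Ms4a4d lies above 1, and the rows of Ms4a7 do not. Among the rows outside the shaded span, AW112010 at 3.85, both rows of Ms4a3 at 1.95 and 1.73, and a row of Oosp1 at 1.24 that is below both floors lie above 1.

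Other relatives of the members, within the span and on both sides of it, did not share a direction. Among 12 other Ms4a genes measured, 1 was at least 2-fold higher, Ms4a4a, which lies inside the span. On the Ms4a7 side of the span, 1 was at least 2-fold lower, Ms4a1, which encodes CD20 of B cells. Ms4a1 had 589 in KO cells and 2587 in WT cells, 4.39-fold lower in KO cells from its brighter row, and its other row differed by -0.64. Ms4a2, the next gene after Ms4a6d, had 1488 in KO cells and 1025 in WT cells, a difference of 0.54. Ms4a3, a gene of granulocyte and monocyte progenitors, had 771 in KO cells and 199 in WT cells and was at least 1.40-fold higher. Ms4a8a, with 653 in KO cells and 471 in WT cells, was at least 1.18-fold higher. The other 7 Ms4a genes, among them Ms4a14 next to Ms4a7, were below both floors. Tmem176a and Tmem176b, distant relatives on chromosome 6, differed by -0.10 and -0.03. AW112010, on the far side of Ms4a1 and chosen after its value was seen, had 10022 in KO cells and 695 in WT cells, 14.4-fold higher.

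**Figure D3:**
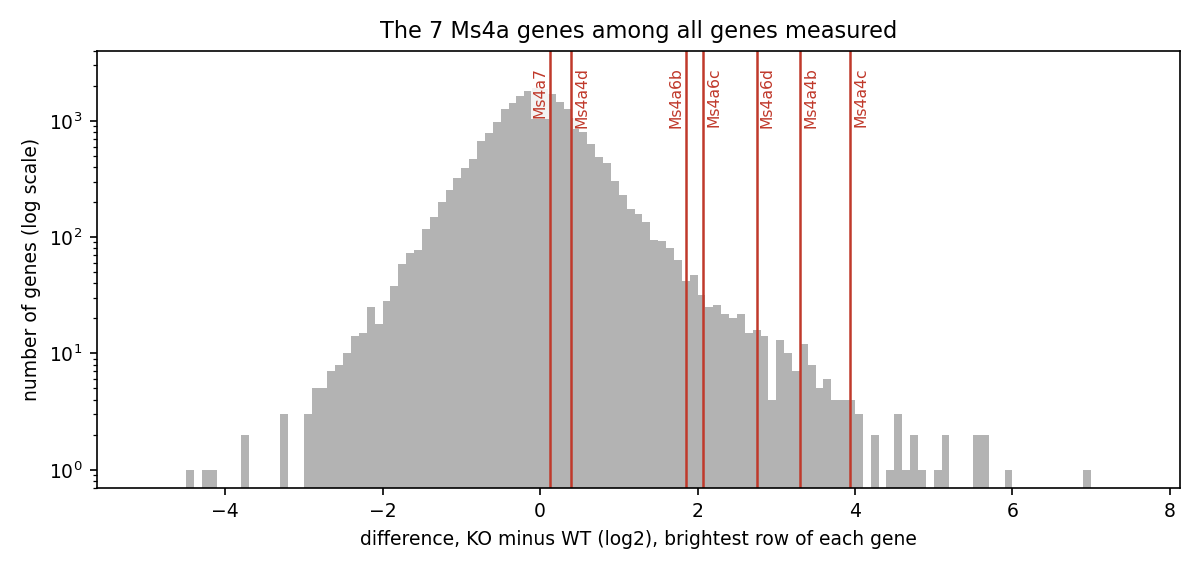
Number of genes, on a log scale, by difference in log2 intensity, KO minus WT, from the brightest row of each of 24203 genes, with the 7 Ms4a genes as red lines. Ms4a7 at 0.12 and Ms4a4d at 0.40 lie in the bulk of the genes, and the other 5 lie between 1.85 and 3.94.

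Most of the monocyte genes listed differed by less than 2-fold. Of 25 measured, 23 were detected in KO cells and 20 in WT cells. The list held 6 genes at least 2-fold higher and none lower, and its median difference was 0.51. Their summed intensity was 227189 in KO cells and 149397 in WT cells. Of these sums, Cybb gave 41813 in KO cells and 13760 in WT cells, Ctss 31733 and 11097, and Mpeg1 20709 and 7820. Cybb, the NADPH oxidase subunit, was 3.04-fold higher in KO cells in its brightest row, and its other rows differed by 1.99 and 2.30 on the log2 scale. The protease gene Ctss was 2.86-fold and Mpeg1 2.65-fold higher. Vcan and Fcgr1, chosen after their values were seen, were at least 8.26-fold and 2.11-fold higher. The defining genes of the lineage differed less, with 0.46 for the growth factor receptor gene Csf1r, 0.59 for the chemokine receptor gene Ccr2, 0.83 for Ly6c2 and -0.44 for Cd14. The macrophage list of 14 genes held 3 at least 2-fold higher and none lower, with a median of 0.22 and a summed intensity of 45378 in KO cells and 26523 in WT cells. These were Axl (2.29-fold), Slc40a1 (2.06-fold) and Vcam1 (2.04-fold). The surface marker gene Adgre1 differed by 0.53 in its brightest row. Its other rows differed by 1.11, detected on both arrays, and by 0.87, detected in KO cells alone. Of the macrophage sums, Vcam1 gave 25778.5 in KO cells and 12651 in WT cells. In the other direction, 6 of the 14 macrophage genes had a negative difference, among them C1qb, chosen after its value was seen, at -0.42. Below both floors lay 5 of the 14, Vsig4 among them.

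Most of the interferon-stimulated genes listed were higher in KO cells. The list held 24 of 29 genes at least 2-fold higher and none lower. Its median difference was 3.01 and its summed intensity was 478481 in KO cells and 68406 in WT cells. The largest differences of genes detected on both arrays were 5.90 for the chemokine gene Cxcl10, 5.10 for Ifit2 and 4.73 for Ifit1. The part of these genes, and of the monocyte genes, in the differences of the Ms4a genes was not tested.

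T cell genes were listed because Ms4a4b and Ms4a6b are known from T cells. Of 21 T and NK cell genes, 14 were detected in KO cells and 11 in WT cells, 0 were at least 2-fold higher and 2 lower, and the median was -0.21. Their summed intensity was 16820 in KO cells and 28204 in WT cells, of which Cd2 gave 4382 in KO cells and 13895 in WT cells. The adhesion gene Cd2 was 3.17-fold and the interleukin-7 receptor gene Il7r 2.40-fold lower in KO cells, Thy1 differed by -0.71, and the T cell receptor component gene Cd3e by -0.16. In the other direction, 6 of the 21 had a positive difference, among them Cd8a, chosen after its value was seen, which was at least 1.24-fold higher.

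Markers of other marrow cell types differed in both directions on the same arrays. Of 20 neutrophil genes, 4 reached 2-fold higher and none 2-fold lower (median 0.43, summed intensity 323489 in KO cells and 229728 in WT cells), with Itgam 2.78-fold, Padi4 2.55-fold and Cxcr2 2.06-fold higher. Of 11 basophil, mast cell and eosinophil genes, 2 reached 2-fold higher and none 2-fold lower. Their median was 0.80, but -0.06 when values below the floor were raised to it. Their summed intensity was 37350 in KO cells and 15330 in WT cells, of which Hdc gave 28471 in KO cells and 9352 in WT cells. Hdc was 3.04-fold higher, Mcpt8, chosen after its value was seen, at least 3.22-fold, and Ccr3 and Prss34 differed by 0.48 and 0.34. Of 15 B lineage genes, none reached 2-fold higher and 7 were at least 2-fold lower (median -1.08, summed intensity 5804 in KO cells and 22287 in WT cells). Ebf1, Cd72 and Cd79b were 6.89-fold, 6.14-fold and 3.74-fold lower in KO cells.

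The labelled cell type was checked with 19 stem cell genes, of which 12 were detected in KO cells and 11 in WT cells. Their median difference was -0.05, with 0 at least 2-fold higher and 1 lower, and their summed intensity was 38117 in KO cells and 35210 in WT cells. The receptor gene Kit differed by 0.30 and Ly6a, which encodes Sca-1, by 0.40. Hoxa9, Cd34 and Mecom differed by -0.60, -0.51 and -0.48. The surface receptor genes Procr and Slamf1 were below both floors.

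**Figure D4:**
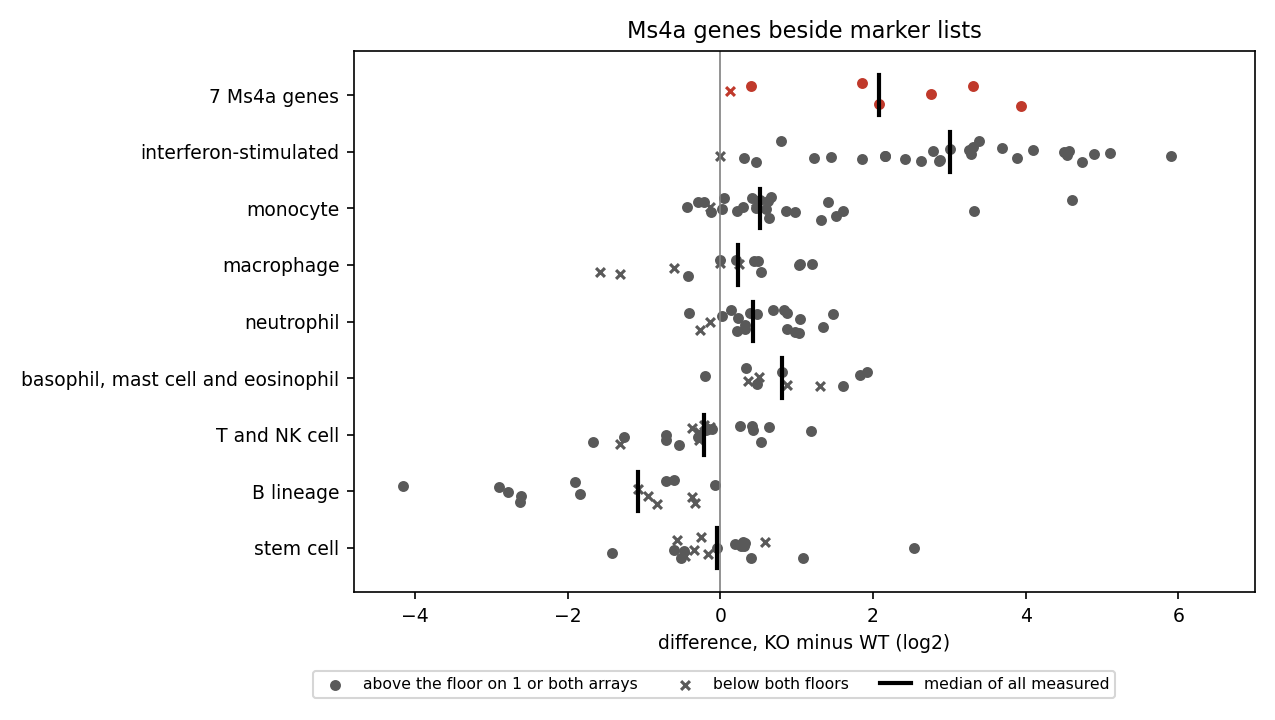
Difference in log2 intensity, KO minus WT, of the 7 Ms4a genes (red) and of each gene in 8 marker lists (grey), with crosses for genes below both floors and black bars for the median of all measured. The median of the Ms4a genes, 2.07, lies below that of the interferon-stimulated list, 3.01, and above those of the other 7 lists. The nearest of these is the basophil, mast cell and eosinophil list at 0.80. With values below the floor raised to it, that list's median was -0.06. The monocyte list was then the nearest at 0.46, beside 1.85 for the Ms4a genes.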

How the data were processed

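RNA from sorted cells was labelled from oligo dT-primed cDNA with Cy3 and hybridised to NimbleGen arrays, per the labels' protocols. The authors deposited linear intensities, summarised with RMA per the submitters' processing notes, which name no version. As generally defined, RMA equalises the distributions of arrays, so differences are relative to the other genes. Of 44171 rows, 44155 summarise 3 probes, per the file headers, and rows are placed on MM9, with the counting of the first base not stated. A control row of 5000 random probes read 36.9 on both arrays. Intensities were put on the log2 scale, with no further normalization. The number of arrays limits the precision.

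Groups came from the genotype label. Symbols were updated by gene ID with a RefSeq table of GRCm38.p6, which held 39057 of 41886 named rows. Each gene was represented by its brightest row, by the mean of the log2 values. Beside all 7 members, the genes named were all other Ms4a genes and Tmem176a and Tmem176b, the genes between and next to the members, defining markers, the 3 genes most like Ms4a4c, and, of each list, the 3 largest differences among genes detected on both arrays. Members and lists were chosen with earlier results of these data known. Alternatives were other floors, averaged rows, loess centring (span 0.3), folds of 1.5 and 3, and the series-wide table of deposited intensities, which differed by at most 1.277e-06 on the log2 scale. Promoters were aligned with Biopython 1.88. The functions for bounds and motifs were tested on simulated data. Python 3.11.15, pandas 2.3.3 and statsmodels 0.14.6 were used.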

Additional observations from a re-analysis of the deposited data

How the results depend on the processing

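Of 33 alternative values, 31 stayed within 1.5 times the count or within 0.37 on the log2 scale, the spread between rows of a gene. Part of these could not move, as the series-wide table holds the same intensities and averaging leaves a gene of a single row unchanged. Other floors and folds do not alter the sign of a difference. Averaging could not alter it for Ms4a4b and Ms4a6c, whose rows were all higher in KO cells. Loess centring moved the difference of Ms4a6b from 1.85 to 1.89 and that of Ms4a4c from 3.94 to 3.98. Shifts of this size could not reverse the 5 higher members, so these alternatives do not test their direction. With the floor at the 99th percentile of receptor rows (10.11 for KO and 10.19 for WT on the log2 scale), 3 of the 7 members were at least 2-fold higher, since the bounds of Ms4a6c and Ms4a6d became 1.66-fold and 1.77-fold, and that of Ms4a4b 4.03-fold. That floor left 448 genes at least 2-fold higher, against 601. With no floor, 1411 genes had a difference of 1 or more. At a fold of 1.5, 1257 genes were higher, and at 3, 281, with 5 members at either. With rows averaged, the difference of Ms4a7 was -0.26 in place of 0.12, and its rows lay under the floors. The median of the members ran from 1.85, when values below the floor were raised to it, to 2.19 with rows averaged. Setting values to the floor also moved the median of all genes to -0.14, that of the basophil, mast cell and eosinophil list to -0.06 and that of the B lineage list to -0.48. No paired analysis was possible because each group has 1 array. Without replicates, the spread between animals or sorts is unknown, and levels near the floor limit the folds of Ms4a4b, Ms4a6c and Ms4a6d to bounds. With the floor at the 99th percentile, the folds of Ms4a4c and Ms4a6b also became bounds, at least 10.8-fold and 2.96-fold. Ms4a4d was then below both floors.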
